A study of Sus scrofa domesticus with 16 samples.

Results

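NUP214 codes for a nucleoporin, a protein of the nuclear pore, and its methylation was examined in the lung tissue of 16 pigs by reduced representation bisulfite sequencing (RRBS), which reads cytosine methylation near the cut sites of the enzyme MspI. The standard diet held 2000 IU of cholecalciferol (vitamin D3) per kg of grower feed and 1500 IU per kg of finisher feed and was given to 8 animals. The other 8 animals were given 3000 and 2500 IU per kg in an otherwise equal feed. Males and females numbered 4 each on both diets. The members are the CpG sites that carry the symbol NUP214 in the authors' deposited table of differentially methylated sites (DMSs), 6 of 2349 sites. All sites of that table were selected on their measured difference, of at least 25 percentage points, and on a q-value under 0.05, so the size and the q-value of the NUP214 sites are given as a description and no test is made on them.

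Each value below is a difference in methylation between the groups in percentage points, read as increased minus standard dose, so that a negative value is a loss with the increased dose. The levels of the single animals and the read depth are not used here. The spread between animals and the depth behind each value are therefore unknown, and no interval can be given. The q-values printed below may take reads and not animals as their unit, and would then be too small. Lung tissue holds many cell types, and a change in their shares cannot be told apart from a change of methylation within a cell. The tissue label could not be checked against marker genes, since no expression values are used.

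NUP214 sits on the cytoplasmic face of the nuclear pore, the channel through which proteins and RNA pass between nucleus and cytoplasm. Together with its partner NUP88 it binds the export receptor XPO1, and it docks the RNA helicase DDX19, which strips export factors from messenger RNA as it leaves the pore. Its phenylalanine-glycine repeats are bound by transport receptors, and in human leukaemias the gene is found fused to other genes. Methylation inside a gene body is common in mammals, and many of the CpGs of introns lie in copies of transposable elements.

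The gene (ENSSSCG00000005711) lies on the plus strand of chromosome 1 from 271103838 to 271210292 in Sscrofa11.1, a length of 106455 bp. Its RefSeq model with the most exons has 36 exons. No other RefSeq gene overlaps it. The 6 sites are numbered here from the start of the gene to its end. To show in what kind of sequence each site lies, the plus strand around it is printed 5′ to 3′ from the RefSeq copy of Sscrofa11.1, with the CpG of the table in capitals. Sites 3 and 4 are so close that 1 window shows both.

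Site 1, chr1:271118478-271118629: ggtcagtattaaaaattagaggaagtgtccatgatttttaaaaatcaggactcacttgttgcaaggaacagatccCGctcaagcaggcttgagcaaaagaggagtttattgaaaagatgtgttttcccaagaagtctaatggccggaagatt
Site 2, chr1:271121310-271121461: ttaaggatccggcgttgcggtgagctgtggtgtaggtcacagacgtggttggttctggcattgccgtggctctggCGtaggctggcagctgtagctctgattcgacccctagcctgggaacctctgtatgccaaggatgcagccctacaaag
Sites 3 and 4, chr1:271177180-271177352: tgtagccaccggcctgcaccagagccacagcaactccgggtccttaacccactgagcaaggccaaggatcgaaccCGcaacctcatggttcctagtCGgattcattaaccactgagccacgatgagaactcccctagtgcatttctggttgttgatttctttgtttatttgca
Site 5, chr1:271180016-271180167: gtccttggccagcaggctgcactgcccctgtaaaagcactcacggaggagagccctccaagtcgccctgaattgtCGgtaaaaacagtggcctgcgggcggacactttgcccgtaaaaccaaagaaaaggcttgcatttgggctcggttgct
Site 6, chr1:271181109-271181260: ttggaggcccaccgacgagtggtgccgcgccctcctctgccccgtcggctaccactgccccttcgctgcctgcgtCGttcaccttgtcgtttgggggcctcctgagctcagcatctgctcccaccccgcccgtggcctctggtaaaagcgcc

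All 6 sites had lower methylation with the increased dose. Their median was -33.9 points, beside a median of -29.8 points over the 955 losses of the authors' deposited table, and all 6 lay beyond the latter. The values spread over the sites with an SD of 7.05 points around a mean of -36.8 points (n = 6 sites), which is a spread between places in the gene and not between animals. Losses made up 40.7% of all DMSs and 40.9% of the other 93 DMSs of chromosome 1.

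Site 1, at 271118553, had the largest loss, -50.4 points (q = 1.0e-26) in the authors' deposited table. Only 24 of the 955 losses were larger. The site lies 14715 bp after the start of the gene in intron 9, and the next exon edge is 576 bp away. The 200 bp around it were poor in CpGs, with a GC share of 43.0% and 5 CpGs. Across all DMSs on chromosomes the medians for 200 bp were 54.0% and 9 CpGs. In the wider window of 1000 bp site 1 was not the poorest. It had 31 CpGs there, against 19 at site 2, 24 at site 3, 25 at site 4, 42 at site 5 and 95 at site 6.

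Site 2, at 271121385, lost -33.2 points (q = 1.7e-13) in the authors' deposited table. It lies 2832 bp after site 1, in intron 11. Sites 1 and 2 thus stood near the start of the gene, at 13.8% and 16.5% of its length. The 55870 bp that follow, with 58 tested sites, held no DMS.

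Sites 3 and 4, at 271177255 and 271177276, lost -32.8 points (q = 5.3e-12) and -31.5 points (q = 1.1e-09) in the authors' deposited table. The latter was the smallest loss of the gene and had its largest q-value. Both are in intron 27, 21 bp apart, with no other CpG of the reference between them. They share an MspI fragment of 143 bp, so the same reads can cover both, and they are not independent measurements.

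Site 5, at 271180091 in intron 28, had the second largest loss of the gene, -38.4 points (q = 2.2e-13) in the authors' deposited table. Site 6, at 271181184, lost -34.6 points (q = 7.2e-12) in the authors' deposited table. It is the only one of the 6 in an exon, the large exon 29 of 1767 bp, where its cytosine is the base at position 2 of a codon in both coding transcripts. Sites 3 to 6 lay within 3929 bp, at 69.0% to 72.7% of the length of the gene.

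**Figure D1:**
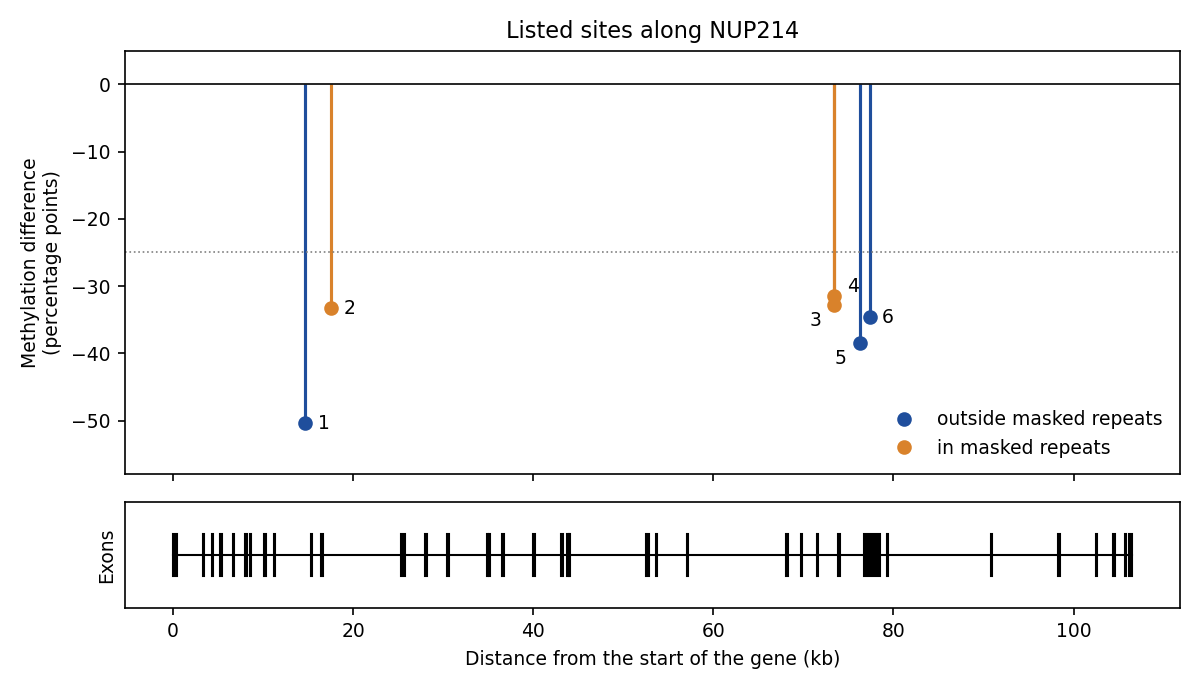
Methylation difference (increased minus standard dose, percentage points) of the 6 DMSs of NUP214 against the distance from the start of the gene in kb, with the 36 exons of the RefSeq model below; the dotted line is the limit of 25 points. All 6 points lie between -31.5 and -50.4 points, sites 1 and 2 near the start and sites 3 to 6 around the large exon 29.

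The order of losses by size was not the order by q-value. Site 2, with -33.2 points, had a slightly smaller q-value (1.7e-13) than site 5 with -38.4 points (2.2e-13) in the authors' deposited table. Among the losses of the whole table the q-values of NUP214 were not extreme: 5 of the 6 were above the median q-value of all losses, 1.3e-14. Only the q-value of site 1 was below it. With the limits of 25 points and q under 0.05, the NUP214 site nearest to a limit was site 4. Sites outside the limits are not analysed here.

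**Figure D2:**
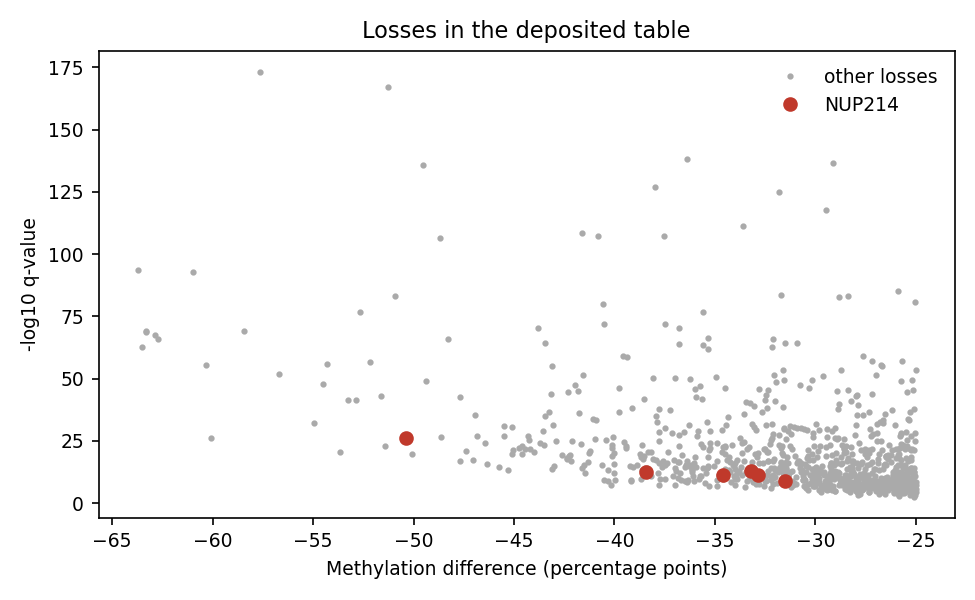
The 955 losses of the authors' deposited table by methylation difference (percentage points, x axis) and -log10 of the q-value (y axis), with the 6 sites of NUP214 in red. Site 1 at -50.4 points stands apart from the other 5, which lie between -31.5 and -38.4 points and have a lower -log10 of the q-value.

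The row numbers kept in the table made it possible to count tested sites without a DMS. They rise to 667810, so the 2349 DMSs are at most 0.352% of the tested sites and the 955 losses 0.143%. On chromosome 1 the row step between neighbouring DMSs exceeded the number of reference CpGs between them in 0 of 98 pairs. From site 1 to site 6 the rows ran from 43837 to 43920, which is 84 tested sites, of which 6 (7.14%) were DMSs and 78 were not. This share is a description only, because the stretch was set by its own DMSs. The 84 tested sites are a small portion of the 1501 reference CpGs in those 62631 bp.

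The losses were not unbroken runs. Between sites 1 and 2 there were 7 tested sites that were not DMSs. Between sites 4 and 5 there were 4, and between sites 5 and 6 there were 9 within 1093 bp. Only sites 3 and 4 were neighbours in the order of tested sites. The stretch from site 3 to site 6 held 4 DMSs among 17 tested sites (23.5%), and that from site 1 to site 2 held 2 among 9 (22.2%). Both stretches were set to begin and end at a DMS, which raises these shares, so they too are a description only.

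**Figure D3:**
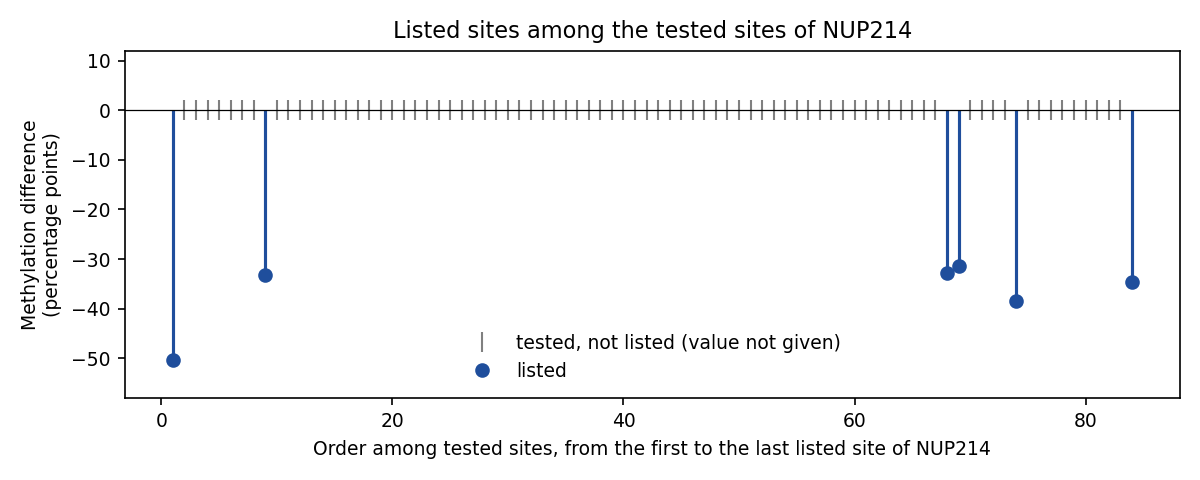
The 84 tested sites from the first to the last DMS of NUP214 in their order along chromosome 1 (x axis), with the methylation difference of the 6 DMSs in percentage points (y axis) and grey ticks for the 78 tested sites that are not in the table. The 6 losses fall in 2 stretches separated by 58 tested sites without a DMS.

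The sites also differed in how unique their sequence is. Sites 2, 3 and 4 lie in lower-case letters of the RefSeq sequence, which mark repeats, in stretches of 238 bp (site 2) and 228 bp (sites 3 and 4). Over all DMSs on chromosomes, 63.5% lie in such letters (61.7% of losses and 64.6% of gains). The 152 bases printed for site 2 aligned to 209634 other places of the genome with at least 80% identity over at least 90% of their length. The windows of sites 3 and 4, taken singly, aligned to 3833 and 2221 other places. Copies this alike were in part closer still: 3 places for site 2 and 5 for site 3 had at least 90% identity, and none for site 4.

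The repeats of site 2 and of sites 3 and 4 were related. In windows of 401 bp, 120 bp aligned with 76.7% identity between site 2 and the opposite strand at site 3. For sites 1, 5 and 6 no other alignment was found in the genome (blastn, E-value limit 1e-05). These 3 sites outside repeats had the 3 largest losses, -50.4, -38.4 and -34.6 points in the authors' deposited table, and the 3 in repeats had the 3 smallest. Whether reads from copies of the repeats played a part in the values of sites 2 to 4 was not tested.

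CpG content varied among the sites and was highest at the exonic site 6. In the 200 bp around each site there were 5 CpGs at site 1, 9 at site 2, 6 at site 3, 7 at site 4, 10 at site 5 and 18 at site 6. The GC share was 60.0% at site 5 and higher still at site 6, both above the upper quartile of all DMSs on chromosomes (59.0%). When CpG islands were defined by a length of 200 bp or more, a GC fraction above 0.5 and a ratio of observed to expected CpGs above 0.6, sites 2, 5 and 6 lay in an island. With the stricter limits of 500 bp, 0.55 and 0.65 only site 6 did.

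All 6 sites were within reach of a read from an MspI cut. The nearest cut (CCGG) was 39 to 110 bases away, and over all DMSs on chromosomes 100% lay within 150 bases, the read length. The fragments that hold the 6 sites are 5 in number. They measure 507 bp for site 1, 418 bp for site 2, 143 bp for sites 3 and 4, 574 bp for site 5 and 251 bp for site 6. Only sites 3 and 4 are thus in a fragment of 40 to 220 bp, as were 33.3% of all DMSs on chromosomes.

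Because the diets differed in vitamin D3, the 200 bp around each site were also searched on both strands for AGGTCA, a motif that nuclear receptors, the vitamin D receptor among them, bind as part of a longer site. It was found at 1 of the 6 sites, site 2, where it can be read in the printed sequence, and in 11.9% of the windows of all 2252 DMSs on chromosomes. The 200 bp around site 2 lie wholly in lower-case letters, so this match is in repeated sequence. A looser form of the motif, [AG]G[GT]TCA, was also found at site 2 alone, and in 31.9% of the 2252 windows. The DR3-type vitamin D response element, searched as an exact direct repeat of that looser form, was found in 0 of the 6 windows and in 0 of the 2252. Elements with a mismatch were not counted. A match says only that these letters are present.

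The nearest DMSs on both sides of NUP214 were gains. A site in ABL1, a tyrosine kinase gene, lies 218586 bp before site 1 with 246 tested sites between them. In the authors' deposited table its value was 41.4 points (q = 1.9e-14). The next DMS after site 6 lies 1888764 bp away at SLC2A6, a sugar transporter gene, with 2152 tested sites between. In the authors' deposited table its value was 26.2 points (q = 9.3e-08). Of the 21 other RefSeq genes within 500 kb, 15 of them protein-coding, 1 held a DMS, ABL1. Of all 16303 RefSeq protein-coding genes 839 had a DMS by symbol, so this count is not read as a trait of the region. Within 2.5 Mb to each side there were 11 other DMSs, 8 losses and 3 gains.

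Among gene symbols with several DMSs, NUP214 was compared with others by the number and direction of their sites. At least 6 DMSs were listed for 10 symbols, of which 1 had losses only, 3 had gains only and 6 had both. That 1 was NUP214. The 10 symbols are not all alike: the sites of U6 lay on 3 chromosomes, so that symbol is not a single gene. The 9 gains of MARK3 lay within 67 bp. Of the 31 symbols with at least 4 DMSs, 4 had losses only, 9 gains only and 18 both. The median length was 75.9 kb for RefSeq protein-coding genes with a DMS and 25.6 kb for all RefSeq protein-coding genes. Of all these genes 15.9% were longer than NUP214. The part of gene length in the number of DMSs per symbol was not tested.

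By the same measure, the number of DMSs that are all losses, the genes most like NUP214 were WWOX, GRHL1 and PEPD with 4 each. WWOX, an oxidoreductase, had a median of -39.8 points over 391697 bp in the authors' deposited table. GRHL1, a transcription factor of epithelia, had a median of -30.4 points over 25450 bp, where 9.30% of the tested sites were DMSs. PEPD, the dipeptidase that releases proline, had a median of -28.2 points over 102396 bp. The share of DMSs among tested sites was 7.14% for PEPD, as for NUP214, and 1.29% for WWOX. Each of these stretches was set by its own DMSs, so the shares are a description only. No other gene with at least 4 DMSs and losses only was found. That rule leaves out genes with mostly losses. SDK1 had as many losses as NUP214, 6 among its 7 DMSs, with a median of -37.5 points over all 7. SFMBT2 had 5 losses among 6 DMSs, with a median of -27.6 points.

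**Figure D4:**
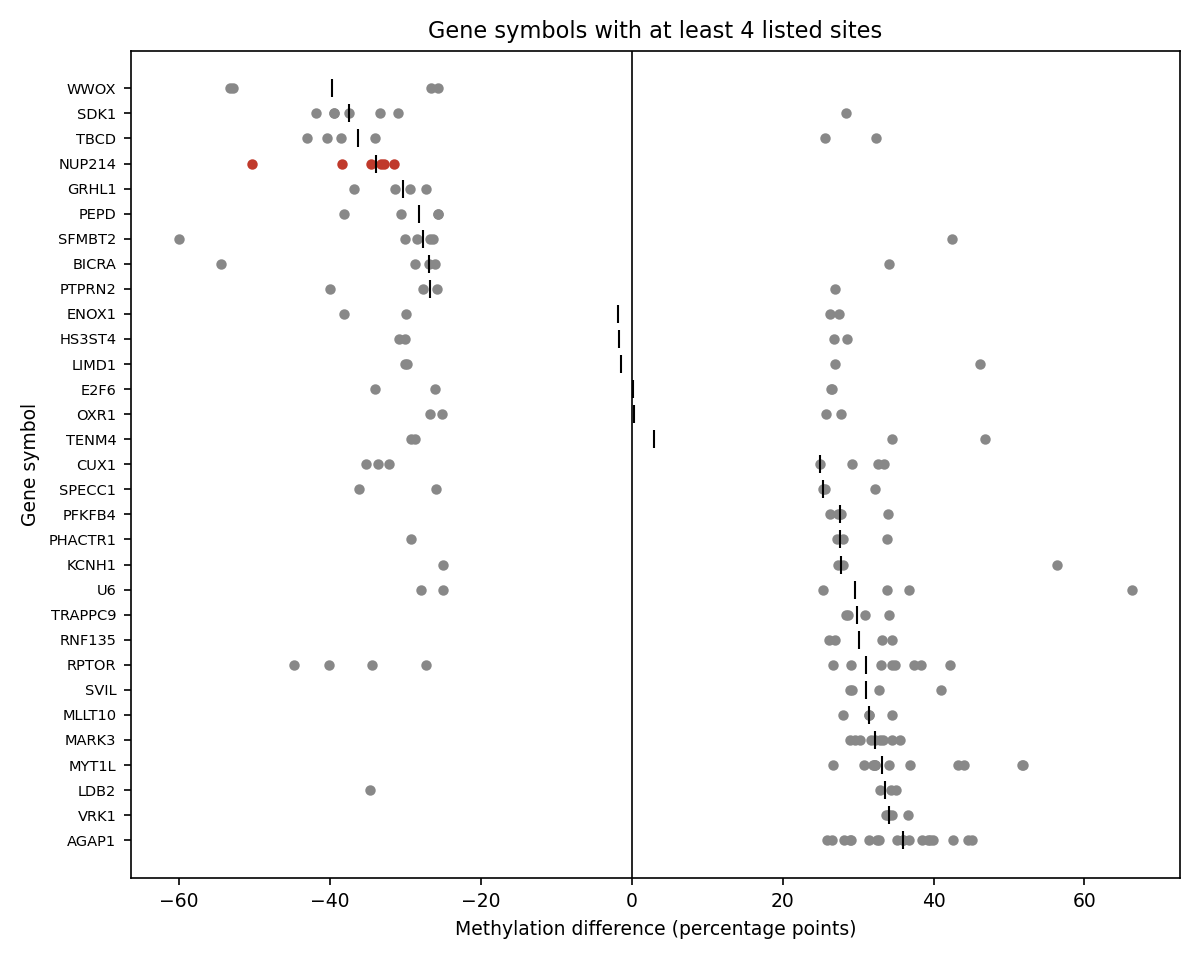
Methylation difference (percentage points, x axis) of every DMS of the 31 gene symbols with at least 4 DMSs in the authors' deposited table; each point is a site, black bars are medians, and symbols are ordered by median. NUP214 (red) has 6 losses and no gain, and WWOX, GRHL1 and PEPD have 4 losses each and no gain.

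Other genes of the nuclear pore were taken from a list of 34, NUP214 included, of which 33 are in the Ensembl table of names. DMSs were listed for 6 of them (18.2% of 33). Without NUP214, which was chosen because it has DMSs, there were 5 of 32 (15.6%), and 5.65% of all 15622 symbols of that table had a DMS. Over the 30 genes of the list that matched RefSeq protein-coding genes by symbol, 4 (13.3%) had a DMS, NUP214 included. Of all 16303 RefSeq protein-coding genes 839 had one. NUP42 and NUP58, which have a DMS by symbol, are not among the 30. The former goes by another symbol in RefSeq, and the latter is not classed there as protein-coding. The 13.3% is thus lower than it would be with both counted, and it was not computed without NUP214. By RefSeq gene body 5 genes of the list held a DMS, NUP214 and NUP58 included, and the share of all genes by gene body was not counted. The median length was 84.9 kb for the 4 matched genes with a DMS, NUP214 included, and 51.2 kb for the list. The part of gene length in the count was not tested. The 5 genes other than NUP214 held 6 DMSs, all of 25.1 to 27.5 points in size, below the smallest loss of NUP214.

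On the cytoplasmic side, where NUP214 sits, NUP42, which takes part in messenger RNA export, had a loss of -25.2 points (q = 1.3e-07) in the authors' deposited table, at a site 9462 bp outside its RefSeq gene model. The study's own annotation places that site in an intron of the gene. NUP98, a repeat nucleoporin found on both faces of the pore, had a gain of 25.1 points (q = 3.1e-12) in an intron. NUP88, RANBP2, GLE1, DDX19A and DDX19B, partners of NUP214 or its neighbours on that face, had no DMS by symbol.

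In the Y complex, the outer scaffold of the pore, NUP107 had 2 intronic losses of -27.5 and -27.0 points, which are neighbours in the order of tested sites. NUP155, of the inner ring, had an intronic loss of -26.4 points (q = 6.2e-24) in the authors' deposited table. NUP58, of the central channel, had an intronic gain of 25.8 points. The 5 genes other than NUP214 thus comprised 3 with losses and 2 with gains.

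Of the 34 transport receptors and Ran cycle genes, 32 in the table of names, 3 had DMSs (9.38% of 32), beside the 5.65% of all symbols. Their 4 DMSs were gains, as were 59.3% of all DMSs, and 2 of the 4 are neighbours in the order of tested sites at KPNB1. So few sites give no reading of a direction for the list. CSE1L, the export receptor that returns importin alpha to the cytoplasm, had an intronic gain of 34.9 points (q = 5.3e-06) in the authors' deposited table. XPO4, an export receptor, had an intronic gain of 27.0 points. KPNB1, importin beta, had 2 gains of 25.8 and 25.9 points just outside the gene, the nearer 1368 bp from it. XPO1, which binds NUP214, had no DMS by symbol.

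**Figure D5:**
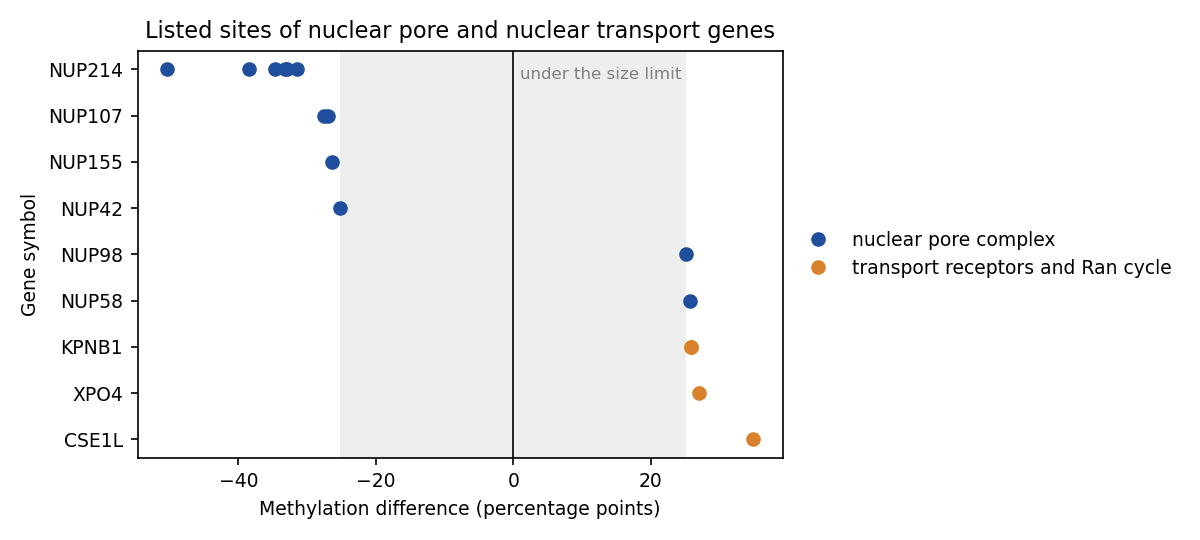
Methylation difference (percentage points, x axis) of every DMS of the nuclear pore list (blue) and of the transport receptor and Ran cycle list (orange), by gene symbol; the grey band marks differences under the limit of 25 points, which the table does not hold. The 6 losses of NUP214 lie beyond all 6 DMSs of the other nuclear pore genes, which are between 25.1 and 27.5 points in size.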

How the data were processed

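RRBS was carried out on lung DNA of 16 pigs, grouped by the treatment label. Per the study's methods, the authors trimmed with FlexBar and mapped with BSMAP, set to MspI, to Sscrofa11.1. CpGs covered by more than 5 reads entered methylKit, where both diets were compared. The submitters' processing notes also name FastQC, methylKit 1.26.0 and Sscrofa11.1. What was deposited is a table with methylKit's p-value and q-value per site, and its methylation difference, treated as a signed score in percentage points. All 3 come from the authors' own comparison, and they are its only measurements. The sign is read as increased minus standard dose. The sources used here do not say whether that test took reads or animals as its unit. With reads the q-values would be too small, and among the losses they went down to 6.3e-174. A first column without a name was read as row numbers of all tested sites.

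Members and gene lists were chosen with earlier results of these data known. Positions were compared with the RefSeq copy of Sscrofa11.1, and all 2252 positions on chromosomes are the cytosine of a CpG there. Exons, MspI fragments, CpG islands and motifs were found with Python 3.11.15 and pysam 0.24.0. Copies were searched with blastn 2.17.0. Functions were checked on made-up input. No statistical test was run. The genes named are NUP214, members of both lists with a DMS, genes with a DMS within 500 kb and, as most alike, at most 5 genes with at least 4 DMSs that are all losses. SLC2A6, SDK1, SFMBT2, MARK3, U6 and list members without a DMS were added after the values were seen.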

Additional observations from a re-analysis of the deposited data

How the results depend on the processing

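Under 42 alternatives, 30 values stayed close: counts within 1.5 times, the median within the SD over sites, and the share within its 95% binomial interval. That interval takes all DMSs as independent, which neighbours on the same reads are not, and it holds no spread between animals. Most of the values are counts or medians over losses, which cannot change sign, so their sign says nothing about stability. At q under 1e-10, 5 NUP214 sites, 4 nuclear pore genes and 2 transport genes were left. Fragments of up to 400 bp held 3 sites. Merging sites within 100 or 1000 bp left 5 losses in NUP214, and by the RefSeq gene body, with or without 5000 bp to each side, 6. At least 35 points left 2 NUP214 sites, both losses, with a median of -44.4 points. Without sites 2, 3 and 4, in repeats, a setting chosen after seeing the data, 3 sites stayed, all 3 losses, with a median of -38.4 points. The share of losses among all DMSs was 37.8% at 30 points and 35.6% at 35 points. At 30 points and at 35 points 1 nuclear pore gene had a DMS, NUP214, and of the transport genes 1 at 30 points and 0 at 35 points. With islands of at least 500 bp 1 site lay in an island. Nuclear pore genes within 5000 bp of a DMS were again 6, with NUP210L and without NUP42. The share of all genes with a DMS was not counted under these other settings. Whether the list counts fell more or less than those of all genes is therefore not known. Neither a minimum depth nor the omission of an animal could be tried, since the table gives neither reads nor animals. No paired analysis was possible because no values per animal are used. Depth per site is unknown.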
